A study of Mus musculus with 7 samples.

Results

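Whether an oocyte dies or survives depends in part on a small group of genes, and 10 of them were followed here in mini-oocytes, which are cells resembling oocytes that were induced from mouse embryonic stem cells (mESCs) with oocyte transcription factors. The genes were Trp63, Trp53 and Chek2, and Bcl2l10, Mcl1 and Bcl2, which were grouped here as anti-apoptotic. The others were the effectors Bax and Bak1 and the BH3-only genes Bbc3 and Pmaip1. All 10 were chosen by name as known regulators of oocyte survival, with earlier results of these data known. Each of the 10 symbols was found once among the 55364 genes listed. Levels were read in all 7 RNA-seq libraries as TPM, a transcript level that divides reads by exon length and scales each library to the same total, so that levels of different genes can be set side by side.

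The libraries came from 3 groups. The first was 4F-mini-oocytes at day 7 (n = 2), the second 4F-mini-oocytes at day 21 (n = 3) and the third 8F-mini-oocytes at day 21 (n = 2). In 4F cells expression of Nobox, Figla, Tbpl2 and Lhx8 was forced, and in 8F cells Stat3, Dynll1, Sub1 and Sohlh1 were added to them. Both lines derive from BVSC H18, a female mESC line of hybrid 129/C57BL6 background, so every group shares 1 parental line. The paper describes the 8F line as carrying an Npm2-mCherry reporter. The set of factors and other differences between the lines therefore cannot be told apart. The factors are fused to a domain that makes them unstable without the ligand Shield-1, which was left out of fresh medium from day 12, and all groups grew with stem cell factor and without gonadal somatic cells. Each library was made from 1000 cells at day 7 and from 10 cells at day 21, so that day and number of cells cannot be told apart. Nothing in the labels says that replicates came from separate cultures. The paper reports considerable cell death in the first days of induction. It also reports that, on average, a smaller share of plated cells survived in the line with fewer factors. The libraries therefore hold cells that were left after this loss, not all cells that were induced. The part of this loss in the levels of the genes followed here, and in their differences between the lines, was not tested.

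As background, DNA damage in an oocyte activates the kinase CHEK2, which acts on p53 (Trp53) and on the oocyte form of p63, TAp63, made from Trp63. These factors switch on BH3-only genes such as Bbc3 (PUMA) and Pmaip1 (NOXA), whose proteins bind and block anti-apoptotic members of the BCL2 family. BAX and BAK1 then open the outer mitochondrial membrane and the caspases follow. TAp63 is abundant in resting oocytes of the primordial follicle. Bcl2l10 is known for its high level in oocytes, and loss of Mcl1 depletes them.

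Bax is a textbook target of p53, and the 250 bases upstream of its transcription start are shown because they hold a match to the p53-family half-site, the consensus that p53 and p63 share. The sequence is that of RefSeq on GRCm38.p6, chr7:45466899-45467148 on the minus strand, with the half-site of 10 bases in capitals, 201 to 192 bases before the start.

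Bax: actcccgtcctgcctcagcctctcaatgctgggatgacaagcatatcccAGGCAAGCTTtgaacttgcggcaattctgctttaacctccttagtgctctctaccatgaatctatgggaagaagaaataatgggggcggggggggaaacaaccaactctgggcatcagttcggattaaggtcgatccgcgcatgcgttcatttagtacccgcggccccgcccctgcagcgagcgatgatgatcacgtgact

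Of the 7 genes with a promoter entry, Bax and Trp53 were the 2 with a half-site in these 250 bases, and Chek2, Mcl1, Bcl2, Bak1 and the 3 starts of Bbc3 had none. The consensus reads the same on both strands, and 7.13% of the 32851 mouse promoter windows of this length hold a match. Trp63, Bcl2l10 and Pmaip1 had no entry.

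The label of the cells was checked against marker genes. All 10 oocyte markers were detected, with a summed level of 10851 to 12488 TPM at day 7, 25913 to 28733 TPM in 4F and 24775 to 25492 TPM in 8F at day 21, and 8 of them rose from day 7 to day 21 in 4F. Of the factors added in 8F, Sohlh1 was the 1 of 4 that passed as higher than in 4F at day 21, with 117 and 143 TPM in 8F and 42.7 to 60.9 TPM in 4F. Of the 4 factors forced in both lines, 2 passed as lower in 8F than in 4F at day 21 and none as higher. Marker lists summed to at most 7.57 TPM for granulosa and other ovarian somatic cells, 8.59 TPM for fibroblasts and 18.7 TPM for blood. Other contents moved with the day as well. The 10 genes of the epithelial and trophoblast list summed to 1275 to 1795 TPM at day 7. At day 21 they summed to 109 to 215 TPM in 4F and 84.5 to 88.9 TPM in 8F. From day 7 to day 21 in 4F, 5 of the 6 tested genes of this list fell. Most of its day 7 sum was Krt8 and Krt18. Krt5, Krt14, Cdx2 and Elf5 were at 0 in both day 7 libraries. The mESC list summed to 61.1 to 81.9 TPM at day 7, 224 to 343 TPM in 4F and 123 to 164 TPM in 8F at day 21, and of its 5 tested genes 2 rose and 1 fell with the day in 4F. Most of its sum at day 21 was Pou5f1, which oocytes express too, with a mean of 27.3 TPM at day 7, 196 TPM in 4F and 88.1 TPM in 8F at day 21. The other gene of the list that rose was Esrrb, from a mean of 8.12 to 36.7 TPM in 4F, with 35.0 TPM in 8F. Zfp42 fell from 21.2 to 7.30 TPM in 4F, Klf4 and Sox2 did not pass, and Fgf4 was at 0 in all 7 libraries. The 10 most abundant genes took 28.5 to 31.8% of the TPM of a library at day 7, 10.2 to 11.5% in 4F and 12.7 to 14.0% in 8F at day 21. The 8F libraries also listed more genes above 0, 26563 and 26750, than the 4F libraries with 21293 to 22316 at day 21 and 21301 and 23334 at day 7. Reads on genes, recovered from the TPM values, were also most in 8F, at 17190271 and 16967186. They were 13834414 to 15725208 in 4F at day 21 and 9051761 and 11725432 at day 7. The part of these differences in the results that follow was not tested. In pools of cells, fewer cells of a type and less RNA per cell cannot be told apart.

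**Figure D1:**
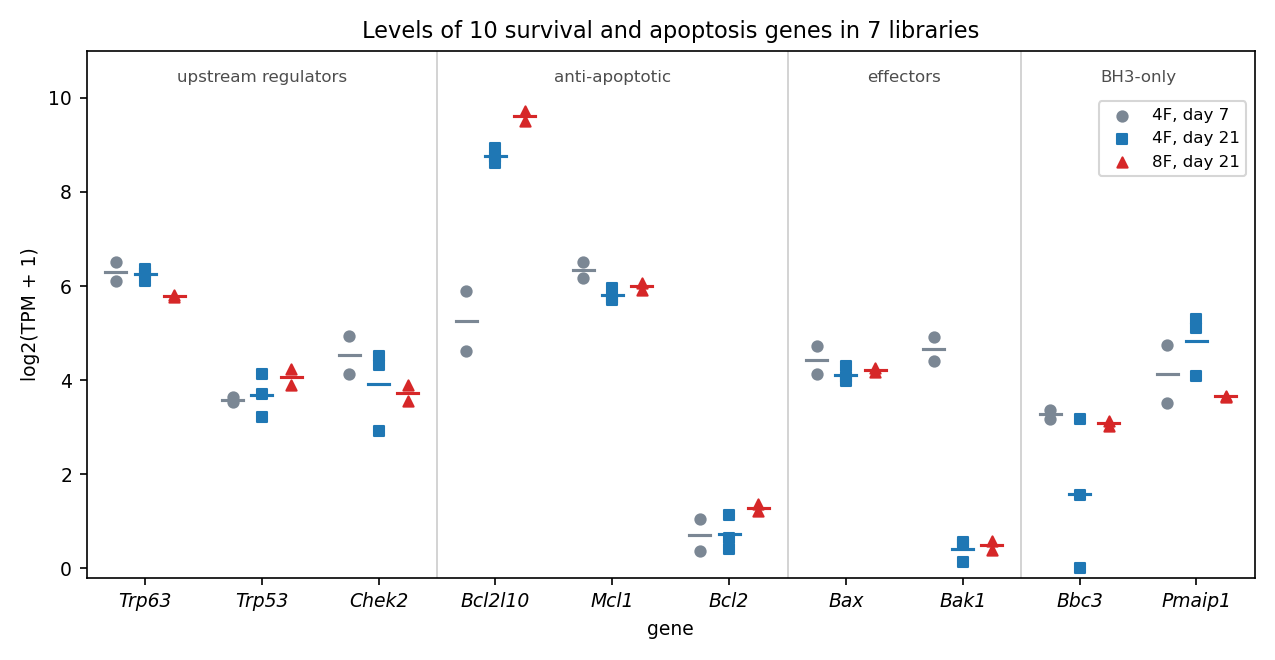
Level of each of the 10 genes as log2(TPM + 1), with 1 point per library and a bar at the group mean, for 4F at day 7 (n = 2), 4F at day 21 (n = 3) and 8F at day 21 (n = 2). Bcl2l10 and Bak1 are the genes whose day 7 and day 21 points lie farthest apart, and Bcl2 lies near the bottom in every group.

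Bcl2l10, which encodes a BCL2 relative grouped here as anti-apoptotic, was the member with the largest rise. Its role in these cells was not tested. The gene lies on the plus strand of chromosome 9, from 75347758 to 75351632 on mm10 in an older version of its gene model. Its level was 23.7 and 58.5 TPM in the 2 day 7 libraries, 486, 392 and 428 TPM in the 3 4F libraries of day 21, and 837 and 727 TPM in the 2 8F libraries. Every day 21 library was above both day 7 libraries, and both 8F libraries were above the 3 4F libraries. From day 7 to day 21 in 4F the mean went from 41.1 ± 24.6 to 435.0 ± 47.4 TPM (SD), a 10.6-fold difference, and the difference in log2(TPM + 1) was 3.50 (SE 0.34, 95% interval 2.68 to 4.32, adjusted p = 0.00048 by limma, a linear model that shares spread across genes, with Benjamini-Hochberg adjustment over all 21780 genes tested). The call held under all 17 other settings of the processing, which change the pseudocount, filter, scaling or fit or leave out 1 library, with differences between 2.87 and 4.14. Ranked by level from the top of each library, Bcl2l10 stood at 6096 and 2320 at day 7, at 209, 295 and 247 in 4F at day 21, and at 98 and 106 in 8F.

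At day 21 the 8F mean of Bcl2l10 was 782 ± 77.9 TPM (SD, n = 2), 1.80 times that of 4F. The difference of 0.85 on the log2 scale (SE 0.34, 95% interval 0.03 to 1.67) did not pass, with an adjusted p of 0.21 by limma. In a limma fit of the day 21 libraries alone, the same difference had an adjusted p of 0.028. The 2 day 7 libraries, at 23.7 and 58.5 TPM, enter the spread of the fit over 3 groups. In 13 of the 17 other settings the difference did not pass, and it ran from 0.745 to 0.998 over all 17. Without 4F replicate 1, 2 or 3 the adjusted p was 0.27, 0.35 or 0.32 by limma. Without 8F replicate 1 or replicate 2 the difference was 0.745 or 0.949.

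Mcl1, whose short-lived protein guards oocytes against BAX and BAK1, was the most abundant of the 3 anti-apoptotic members at day 7. The gene lies on the plus strand of chromosome 3 (95658788 to 95663176, mm10). It measured 90.6 and 70.9 TPM at day 7, 61.4, 51.5 and 52.6 TPM in 4F at day 21, and 59.7 and 65.6 TPM in 8F. Both day 7 libraries lay above every day 21 library. The day 21 level in 4F was lower by 0.54 on the log2 scale (SE 0.15, adjusted p = 0.030 by limma), and the means were 80.8 ± 13.9 and 55.1 ± 5.43 TPM (SD). This call was close to the threshold: the direction held in all 17 other settings, but the adjusted p was over 0.05 in 9 of them, the highest being 0.13 without day 7 replicate 1. It was also lost without day 21 4F replicate 2 (0.074) or replicate 3 (0.074), and without 8F replicate 1 (0.062) or replicate 2 (0.062). Between 8F and 4F the difference in Mcl1 was 0.18 (95% interval -0.18 to 0.55, adjusted p = 0.56 by limma).

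Bcl2, the founding member of its family, was low in every library. It had 1.06 and 0.293 TPM at day 7, 0.326, 1.18 and 0.573 TPM in 4F at day 21, and 1.57 and 1.32 TPM in 8F, which rest on 14.0 to 84.0 recovered reads per library. The day 7 and day 21 4F libraries overlapped and the 8F libraries were the 2 highest. Neither the day 21 minus day 7 difference of 0.02 (95% interval -0.90 to 0.94) nor the 8F minus 4F difference of 0.56 (95% interval -0.36 to 1.48, adjusted p = 0.47 by limma) passed the test. Its exons share 558 bases with the antisense gene D630008O14Rik, which stayed at or under 1.74 TPM, and no strand option is named for the counting.

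Set side by side on the TPM scale, Bcl2l10 made up 20.5% and 45.1% of the summed level of Bcl2l10, Mcl1 and Bcl2 at day 7. Its share was 88.7%, 88.2% and 88.9% in 4F and 93.2% and 91.6% in 8F at day 21. The sum itself was 115 and 130 TPM at day 7. At day 21 it was 444 to 547 TPM in 4F and 794 to 899 TPM in 8F. The order of Bcl2l10 and Mcl1 was thus opposite at the 2 days. What this sum of RNA means for survival of the cells was not tested.

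**Figure D2:**
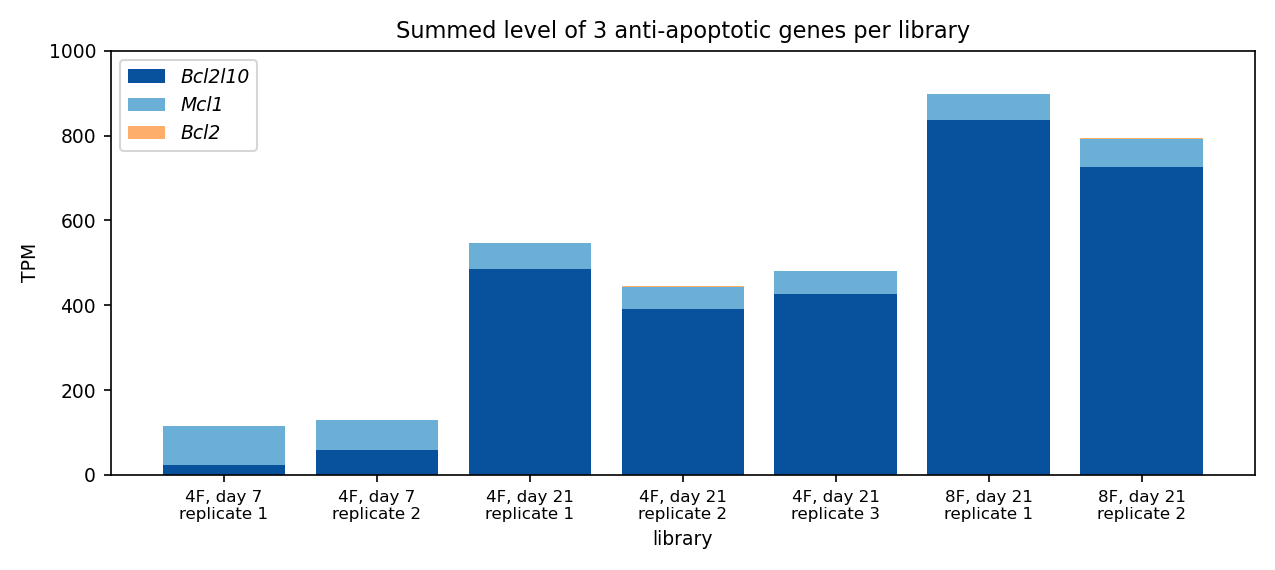
Stacked level in TPM of Bcl2l10, Mcl1 and Bcl2 in each of the 7 libraries, 1 bar per library. Mcl1 is the larger segment in both day 7 libraries and Bcl2l10 in all 5 libraries of day 21, while Bcl2 is barely visible.

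Bak1, which encodes an effector that opens the outer mitochondrial membrane, was at 29.3 and 20.3 TPM in the day 7 libraries, at 0.443, 0.0956 and 0.478 TPM in 4F at day 21, and at 0.493 and 0.318 TPM in 8F. Both day 7 libraries lay far above all 5 libraries of day 21, and the 4F and 8F libraries overlapped. In recovered reads these values were 277 and 255 at day 7, then 5.00, 1.00 and 4.83 in 4F and 6.92 and 4.33 in 8F, where 3 reads are worth 0.214 to 0.297 TPM. Bak1 fell by 4.26 on the log2(TPM + 1) scale in 4F (SE 0.39, 95% interval -5.18 to -3.34, adjusted p = 0.00035 by limma), and 17 of 17 other settings kept this call, with differences from -6.71 in voom to -2.47 with a pseudocount of 5. It passed the filter on low levels, at least 1 TPM in at least 2 libraries, through the day 7 libraries alone. The 8F minus 4F difference was 0.08 (95% interval -0.84 to 1.00), between values of few reads.

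Bak1 lies on the minus strand of chromosome 17 (27019810 to 27029009, mm10) and shares 614 exonic bases with Ggnbp1 on the opposite strand. The level of Ggnbp1 was 17.2 and 6.47 TPM at day 7, 0.917, 0.101 and 0.690 TPM in 4F at day 21, and 0.960 and 0.491 TPM in 8F. Both genes were thus high at day 7 and low at day 21, and without strand the reads over their shared bases cannot be told apart. Krt8 and Krt18, most of the day 7 sum of the epithelial and trophoblast list given above, were high in the same libraries as Bak1. Krt18 had 436 and 658 TPM at day 7 and 8.81 TPM at most at day 21. What part cells with these keratins had in the level of Bak1 was not tested.

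Bax did not pass the test in either comparison. It measured 25.4 and 16.6 TPM at day 7, 15.8, 18.7 and 14.9 TPM in 4F at day 21, and 18.2 and 17.1 TPM in 8F. The groups overlapped in both comparisons. The difference between day 21 and day 7 in 4F was -0.31 (95% interval -0.88 to 0.26, adjusted p = 0.34 by limma), and that between 8F and 4F was 0.10 (95% interval -0.47 to 0.67, adjusted p = 0.87 by limma). The gene shares 192 exonic bases with Gm45808 on the same strand, where a read was split between both. Gm45808 was at 71.5 and 55.1 TPM at day 7, 25.1, 17.5 and 25.8 TPM in 4F at day 21 and 25.4 and 23.7 TPM in 8F, above Bax in 6 of the 7 libraries, and its part in the level of Bax was not tested. Without day 7 replicate 1 the difference of Bax with the day was -0.017, and without replicate 2 it was -0.60. The ratio of Bax to Bak1 was 0.865 and 0.816 at day 7 and between 31.1 and 195 in the 5 libraries of day 21, the highest in 4F replicate 2, where Bak1 had 1 read.

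Among the upstream regulators, Trp63 was the most abundant in every library. Its level was 68.0 and 90.0 TPM at day 7, 81.5, 76.4 and 68.1 TPM in 4F at day 21, and 53.7 and 55.5 TPM in 8F. The 2 days overlapped in 4F, and both 8F libraries were below the other 5. From day 7 to day 21 in 4F the difference was -0.06 (SE 0.15, 95% interval -0.43 to 0.31, adjusted p = 0.80 by limma). This value depended on the scaling: it was -0.65 after quantile normalization (adjusted p = 0.015) and -0.62 in voom, a model for counts run on reads recovered from the steps of the TPM values (adjusted p = 0.0071), against a range of 0.0071 to 1 over the 17 settings. In 8F the level was 0.725 times that in 4F, a difference of -0.45 (95% interval -0.82 to -0.08) with an adjusted p of 0.14 by limma, and no setting brought the adjusted p to 0.05.

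The Trp63 locus, chromosome 16 from 25683763 to 25892102 on the plus strand of mm10, makes TAp63 and also ΔNp63, the form of basal epithelium, and a level per gene does not separate them. Krt5 was at 0 in all 7 libraries and Krt14 was at 0 in 6 and at 0.101 TPM in 8F replicate 2, which are the defining keratins of basal epithelium. Krt8 and Krt18 of simple epithelium were detected. The 3 genes most like Trp63 over the 7 libraries, among 10571 genes averaging 10 TPM or more, were Efcab14 (Pearson's r 0.974), the microRNA locus Mir7001 (0.970) and Maoa (0.956). For Bcl2l10 they were Gemin7 (0.9994), Siah2 (0.9987) and Tm2d3 (0.9984). These values describe 7 libraries of 3 groups that share a culture system and were picked as the highest of many.

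Trp53 had 11.5 and 10.6 TPM at day 7, 12.0, 8.37 and 16.6 TPM in 4F at day 21, and 18.0 and 13.8 TPM in 8F. The groups overlapped in both comparisons. The differences were 0.10 from day 7 to day 21 in 4F (95% interval -0.66 to 0.86) and 0.38 between 8F and 4F (95% interval -0.38 to 1.14), with adjusted p of 0.83 and 0.57 by limma. Trp63 exceeded Trp53 in all 7 libraries on the TPM scale, by 5.93 and 8.53 times at day 7, by 4.11 to 9.13 times in 4F at day 21, and by 2.99 and 4.01 times in 8F. The 8F ratios were the 2 lowest.

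Chek2 ranged widely between replicates, with 29.9 and 16.4 TPM at day 7, 21.9, 18.9 and 6.52 TPM in 4F at day 21, and 10.8 and 13.8 TPM in 8F. The lowest value came from 4F replicate 3, which rests on 82.0 reads. No difference passed the test: it was -0.62 from day 7 to day 21 (95% interval -1.88 to 0.64, adjusted p = 0.39 by limma) and -0.19 between 8F and 4F (95% interval -1.45 to 1.07, adjusted p = 0.89 by limma). The difference with the day was -0.12 without 4F replicate 3 and -1.04 without day 7 replicate 2. Intervals of this width hold changes of over 1 log2 unit in either direction between 8F and 4F.

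Replicates of the BH3-only genes were uneven in 4F at day 21. Bbc3 measured 8.04 and 9.38 TPM at day 7, 0, 1.95 and 7.97 TPM in 4F at day 21, and 7.19 and 7.83 TPM in 8F. The 3 day 21 4F libraries ran from 0 of its reads to 71.0, where 3 reads would give 0.302 TPM in the library at 0, and 4F replicate 3 was within the range of the 8F and day 7 libraries. All 3 were below both day 7 libraries, but the difference of -1.70 (SE 0.86, 95% interval -3.76 to 0.36) had an adjusted p of 0.16 by limma. Without 4F replicate 3 it was -2.50 with an adjusted p of 0.024, in a range of 0.024 to 0.53 over the 17 settings, so leaving out this 1 library changed the call. Without 4F replicate 1, the library at 0, it was -0.91. The 8F minus 4F difference was 1.51 (95% interval -0.54 to 3.57, adjusted p = 0.37 by limma), with 0.73 without 4F replicate 1 and 2.31 without replicate 3.

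Pmaip1 had 25.8 and 10.4 TPM at day 7, 33.3, 16.1 and 38.4 TPM in 4F at day 21, and 11.6 and 11.7 TPM in 8F. Both 8F libraries were below the 3 4F libraries of the same day, and the 2 days overlapped in 4F. The 8F level was 0.397 times the 4F level, a difference of -1.18 (SE 0.48, 95% interval -2.32 to -0.03) with an adjusted p of 0.21 by limma. Between the days in 4F the difference was 0.70 (95% interval -0.44 to 1.85, adjusted p = 0.29 by limma), and it was 1.32 without day 7 replicate 1 and 0.085 without replicate 2. The summed level of Bbc3 and Pmaip1 was 33.9 and 19.8 TPM at day 7, 33.3, 18.0 and 46.4 TPM in 4F and 18.7 and 19.5 TPM in 8F. The day 21 4F libraries overlapped both other groups in this sum.

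Counted together, 3 of the 10 members passed an adjusted p of 0.05 between day 21 and day 7 in 4F, 1 higher (Bcl2l10) and 2 lower (Bak1 and Mcl1). In voom 5 members and 41.2% of all genes passed, the members being these 3 with Trp63 and Bbc3. Over all 21780 genes tested, 40.6% passed in this comparison, 25.3% higher and 15.3% lower, so the share of members called was not above that of genes at large. The median difference was -0.18 over the members and 0.17 over all genes. This median shifts with the scaling, to -0.06 when libraries are rescaled by the median of ratios, to 0.09 after quantile normalization and to -0.32 in voom, and with it the share of calls that were higher, from 62.3% to 48.6%, 54.2% and 37.3%. Relative to the median of all genes, Bcl2l10 was at 3.33, Mcl1 at -0.71 and Bak1 at -4.43, and their directions were the same under all 3 of these scalings.

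**Figure D3:**
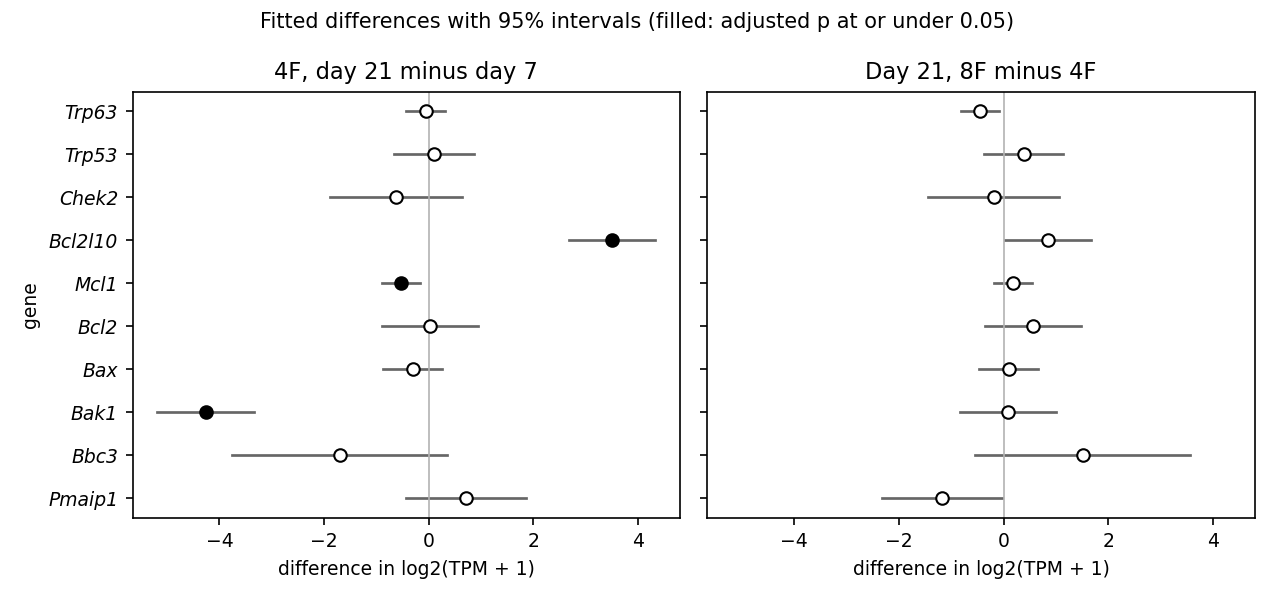
Fitted difference in log2(TPM + 1) for each of the 10 genes with its 95% interval from limma, for day 21 minus day 7 in 4F on the left and 8F minus 4F at day 21 on the right. Filled points passed an adjusted p of 0.05, which on the left are Bcl2l10, Mcl1 and Bak1 and on the right none.

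Between 8F and 4F at day 21, 0 of the 10 members passed by limma, while 8.37% of all genes did, 3.95% higher and 4.41% lower in 8F. At an unadjusted p under 0.05 there were 3, Bcl2l10 (higher in 8F), Trp63 and Pmaip1 (lower in 8F), where 22.3% of all genes were under it. Voom on recovered reads called 1 member, Bcl2l10, and 2271 of the 21728 genes it tested. The share of all genes called by limma rested on single libraries: it was 1.40% without 8F replicate 1 and 1.64% without replicate 2, with 73.5% and 71.1% of the calls higher in 8F against 47.3% with all libraries. It was 4.33%, 4.24% and 4.69% without 4F replicate 1, 2 and 3. In the third comparison, 8F at day 21 against 4F at day 7, 2 members passed, where 37.2% of all genes did, or 19.4% and 18.8% without 8F replicate 1 and 2. Bcl2l10 differed by 4.35 (adjusted p = 0.00044 by limma) and Bak1 by -4.18 (adjusted p = 0.00075 by limma), beside 3.50 and -4.26 for the 4F libraries of day 21 against the same day 7 libraries. Trp63 was at -0.51 in it (adjusted p = 0.054 by limma) and Mcl1 at -0.35 (adjusted p = 0.15 by limma).

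The rest of the pathway was described with 7 lists of 60 symbols, of which 59 were found and 52 were tested, and Tp53bp2 was not matched. Between day 21 and day 7 in 4F, 26 of the 52 passed, 16 higher and 10 lower, with a median difference of 0.02 beside 0.17 for all genes. At day 21, 8 of 52 differed between 8F and 4F, 5 higher and 3 lower in 8F. As shares these were 50% and 15.4%, beside 40.6% and 8.37% of all genes. The count of 8 depended on single libraries: it was 0 without 8F replicate 1 or replicate 2, and 3, 5 and 2 without 4F replicate 1, 2 and 3.

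Both other anti-apoptotic genes that were tested changed from day 7 to day 21 in 4F, in opposite directions. Bcl2l1, which encodes BCL-XL, rose from a mean of 28.5 to 85.8 TPM (difference 1.56, SE 0.12, adjusted p = 0.00018 by limma). Bcl2l2, which encodes BCL-W, fell from 16.1 to 3.37 TPM (difference -2.21, adjusted p = 0.025 by limma). Neither passed between 8F and 4F. Bcl2l1 thus stood below Bcl2l10 and above Mcl1 at day 21 in mean TPM in both lines.

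Of the 4 tested genes in the list of other pro-apoptotic BCL2 relatives, 1 rose and 1 fell with the day. The riser was Bcl2l11, which encodes the BH3-only protein BIM, from 4.97 to 20.1 TPM (difference 1.92, adjusted p = 0.0055 by limma). Bad, which encodes a BH3-only protein held in check by growth factor signalling, fell from 12.6 to 4.59 TPM (difference -1.32, adjusted p = 0.038 by limma). None of the 4 passed between 8F and 4F.

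The list of p53 and p63 relatives, kinases, partners and targets had 14 of 23 tested genes past the threshold with the day, 9 higher and 5 lower. On the log2(TPM + 1) scale, which understates changes of low genes, its largest changes were falls of receptor genes of the tumor necrosis factor family. Tnfrsf10b, which encodes the mouse TRAIL receptor, went from 24.6 to 1.98 TPM (difference -3.10, adjusted p = 0.00079 by limma). Eda2r, which encodes a receptor of ectodysplasin, was at 5.67 and 5.69 TPM at day 7 and listed at 0 in all 3 day 21 4F libraries (adjusted p = 0.0027 by limma). It needed the day 7 libraries to pass the filter on low levels, so its call is not independent of that filter. Between 8F and 4F 4 of the 23 passed, 2 in each direction. Sesn2, a stress-induced sestrin, had a mean of 69.7 TPM in 8F and 9.53 TPM in 4F (difference 2.93, adjusted p = 0.024 by limma), and Chek1, the kinase that answers stalled replication, had 210 and 131 TPM (difference 0.68, adjusted p = 0.025 by limma).

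Downstream of the mitochondria, 3 of 8 genes of the caspase and apoptosome list passed with the day, 2 higher and 1 lower. Casp8, the initiator caspase of death receptors, rose from 2.64 and 0 TPM at day 7 to a mean of 12.3 TPM in 4F at day 21 (difference 2.80, adjusted p = 0.0077 by limma). Casp8 needed the day 21 libraries to pass the filter on low levels. Cycs, which encodes cytochrome c, was the 1 gene of this list that passed between 8F and 4F, at 53.05 against 19.8 TPM (difference 1.44, adjusted p = 0.039 by limma).

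Among caspase inhibitors and their antagonists 2 of 7 passed with the day, both higher. Birc3, an inhibitor of apoptosis that acts in tumor necrosis factor signalling, rose from 24.9 to 207 TPM (difference 3.00, adjusted p = 5.9e-05 by limma). Birc5, or survivin, which is known as much for its part in chromosome segregation as for apoptosis, rose from 72.3 to 397 TPM (difference 2.47, adjusted p = 0.00013 by limma). It was also higher in 8F, at 901 TPM (difference 1.18, adjusted p = 0.013 by limma), and was the 1 gene of the list to pass there.

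Of the 4 mitochondrial partners of BAX and BAK1, 2 fell with the day. Mtch2, a receptor for truncated BID, went from 5.24 to 0.809 TPM (difference -1.79, adjusted p = 0.0071 by limma) and Vdac2, a channel that holds BAK1 at the membrane, from 58.6 to 38.5 TPM (difference -0.59, adjusted p = 0.0092 by limma). Mtch2 needed the day 7 libraries to pass the filter on low levels. Vdac3 was the 1 that passed between the lines, with 107 TPM in 8F and 52.4 TPM in 4F (difference 1.03, adjusted p = 0.024 by limma). In the list on turnover of MCL1 protein, Usp9x, which removes ubiquitin from MCL1, rose from 202 to 306 TPM (difference 0.60, adjusted p = 0.0064 by limma). Huwe1, a ligase that adds it, was lower in 8F than in 4F, at 129 against 180.5 TPM (difference -0.49, adjusted p = 0.033 by limma).

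**Figure D4:**
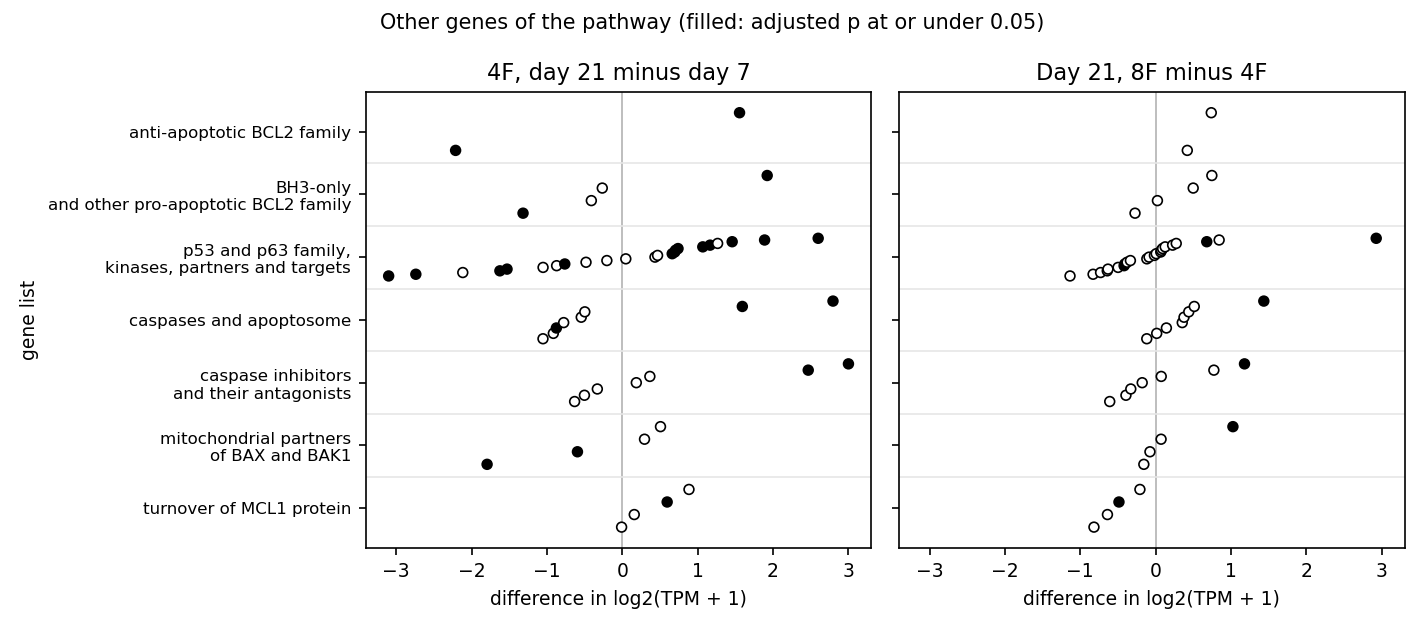
Difference in log2(TPM + 1) of the 52 tested genes of the 7 lists, 1 point per gene and 1 row per list, for day 21 minus day 7 in 4F on the left and 8F minus 4F at day 21 on the right. Filled points passed an adjusted p of 0.05, 26 on the left and 8 on the right, and on the left they lie on both sides of 0 in most lists.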

How the data were processed

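Libraries of 7 mini-oocyte samples were prepared with the SMART-seq stranded kit and sequenced, and condition and replicate number were taken from the sample titles. The paper names NovaSeq instruments of different models and read lengths, and its methods do not say which library was run on which. The part of this in the differences between groups was not tested. The authors clipped 3 bases of read 2 with Trim Galore, aligned to mm10 with HISAT2 and discarded rRNA reads by intersection in bedtools. Reads mapping to a single place were assigned to GENCODE vM25 genes by featureCounts, from which the authors deposited TPM. Reads that overlap several genes were counted as fractions and the options given include no strand setting, so overlapping genes share reads, and unique mapping lowers genes with near-identical copies.

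Of 55364 genes, the 21780 that reached 1 TPM in 2 or more of the 7 libraries entered a linear model of log2(TPM + 1) in limma 3.58.1 under R 4.3.3 (eBayes with a trend, 1 fit of 3 groups, two-sided, Benjamini-Hochberg over the genes tested, FDR 0.05), since the study's edgeR test needs counts, which were not used here. Fold changes of low genes are understated on this scale. Reads were recovered from the steps of low TPM values with exon lengths of GENCODE vM21, on which 54312 genes (98.1%) matched with their version: 9051761 to 17190271 reads on genes per library, 78.4 to 82.9% of low values being whole within 0.02 reads and 99.0 to 99.6% being whole sixths. The version of Bcl2l10 did not match, so no reads are printed for it, and in voom its reads rest on the exon length of the older version. Floors cover counting error only, and p-values measure only the spread between these samples.

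The 10 members and the pathway and marker lists were chosen with earlier results of these data known. Named genes are the members, up to 2 genes of each list with the largest change past FDR 0.05 in each of the first 2 comparisons, and the 3 genes most like Trp63 and Bcl2l10. A gene that this rule names is not reported here. Krt18, Krt8, Krt5, Krt14, Cdx2, Elf5, Pou5f1, Esrrb, Zfp42, Klf4, Sox2 and Fgf4 were named after their values were seen. The 17 other settings were quantile normalization, rescaling by the median of ratios, a pseudocount of 0.1 or 5, no filter or one of 5 TPM, no trend in eBayes, fits of only the 2 groups compared, a replicate block, each library left out in turn, and voom on recovered reads, which was chosen after seeing the data. The values of the 4F and 8F libraries were written with different numbers of decimals. Promoters are those of RefSeq on GRCm38.p6.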

Additional observations from a re-analysis of the deposited data

How the results depend on the processing

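The calls of Bcl2l10 and Bak1 for day 21 against day 7 in 4F, and for 8F at day 21 against 4F at day 7, held in direction and threshold under all 17 other settings. These settings reuse the same libraries, and Bak1 had passed the filter on low levels through the day 7 libraries alone. Of 507 member differences under another setting, 463 kept direction and side of the threshold, 17 passed newly, 9 no longer passed (all of them Mcl1 with the day in 4F) and 18 changed sign, none of which was called. The number of members called with the day in 4F was 3, against 5 in voom, and 2 to 3 with a library left out. Between 8F and 4F it was 0, against 1 with only the 2 groups compared and in voom, and 0 to 1 with a library left out. For 8F at day 21 against 4F at day 7 it was 2, against 4 with median-of-ratios rescaling, quantile normalization and voom. Of the pathway genes, 8 differed between 8F and 4F, against 0 without a filter, 5 with quantile normalization, 2 without the trend, and 0 to 6 with a library left out, the 0 coming without 8F replicate 1 or replicate 2, so that this count rests on both 8F libraries. It was 3 without 4F replicate 1, 5 without replicate 2 and 2 without replicate 3. For 8F at day 21 against 4F at day 7 the 24 pathway genes became 12 without 8F replicate 1 and 11 without replicate 2, in a range of 11 to 25. Over all genes the calls between 8F and 4F fell from 1822 to 994 without the trend, with the share of higher calls going from 47.3% to 61.1%, and that share was 62.9% in voom, where the median of all genes was 0.27. The cause was not tested.

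With a replicate block, the fit called 0 pathway genes and 164 of all genes between 8F and 4F. Deviations of same-numbered libraries correlated between -0.037 and 0.011, so the numbers were not taken to pair samples. A replicate 3 exists only in 4F at day 21, so the block fits that library exactly. Its differences with the day in 4F therefore repeat those found without 4F replicate 3. Under the block, the difference with the day in 4F was 0.012 for Trp63 and -0.12 for Trp53, Bbc3 passed at -2.50 (adjusted p = 0.029 by limma), and Mcl1 at -0.50 no longer did (adjusted p = 0.095 by limma).

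Signs that changed with the day in 4F were those of Trp63 (-0.26 to 0.14 with a library left out, above 0 without day 7 replicate 2 or 4F replicate 3), Trp53 (-0.21 with median-of-ratios rescaling, -0.43 in voom, -0.12 to 0.33 with a library left out) and Bcl2 (-0.099 with median-of-ratios rescaling, -0.37 in voom, -0.31 to 0.36 with a library left out). Between 8F and 4F they were those of Chek2 (-0.69 to 0.11 with a library left out) and Bak1 (-0.36 with quantile normalization, -0.058 to 0.17 with a library left out). For 8F at day 21 against 4F at day 7, Bax ran from -0.50 to 0.082 and Pmaip1 from -1.09 to 0.15 with a library left out, both above 0 without day 7 replicate 1. Low reads limit Bak1 at day 21, Bcl2 and Bbc3, and with 2 or 3 libraries a group the intervals of Chek2, Bbc3 and Pmaip1 remain wide.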
